A study of Homo sapiens with 20 samples.

Results

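The response of gene expression to FOXO1 activation was compared between KM-H2 and L428, established cell lines of classical Hodgkin lymphoma, on 8 of the 20 arrays of the study. All cells of the study carried FOXO1(3A)ER, a FOXO1 mutant that stays active and is joined to the hormone-binding part of the oestrogen receptor, so that 4-hydroxytamoxifen (4-OHT) switches it on. The 4 groups were KM-H2 with 4-OHT, KM-H2 with ethanol vehicle, L428 with 4-OHT and L428 with ethanol vehicle, each treated for 24 h and measured on 2 arrays. The quantity described is the difference of responses, that is the log2 change with 4-OHT over vehicle in KM-H2 minus the same change in L428, and a positive value means a higher response in KM-H2. Genes were chosen by the test of this difference and, above all, by moving in opposite directions in the lines. Of 13722 genes tested, the difference was called for 3744, and 423 of these were called in opposite directions. Neither the promoter that drove the fusion protein nor whether the lines were single clones is given in the sources used here, and no cells without the fusion protein were among the arrays, so effects of 4-OHT itself and of FOXO1 cannot be told apart.

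FOXO1 is a forkhead transcription factor that AKT keeps out of the nucleus when growth factor signalling is on. In B cells it supports early development and the germinal centre, and its targets include cell cycle inhibitors, pro-apoptotic genes and regulators of metabolism. Classical Hodgkin lymphoma arises from germinal centre B cells that have lost much of the B cell programme and rely on NF-kB and JAK-STAT signalling.

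The values are log2 expression values of the robust multichip average (RMA) from Human Gene 1.0 ST arrays, and a level below 5 is called near background. Array medians ran between 5.67 and 5.71, and replicate arrays differed with an SD, over all genes, of 0.142 to 0.165. Precision is limited by having 2 arrays per group. Differences were called with limma at a Benjamini-Hochberg adjusted p below 0.05 over all 13722 genes, and adjusted p-values come from that fit, except those of other lines. FOXO1 itself had 9.08 and 9.28 with 4-OHT and 9.17 and 9.21 with vehicle in KM-H2, and 9.48 and 9.53 with 4-OHT and 9.37 and 9.58 with vehicle in L428. The arms overlapped in both lines and the difference of responses was -0.037 ± 0.11 (SE, n = 2 arrays per group, adjusted p = 0.861), but the switch acts on the protein, so this transcript does not check the treatment. Of the markers of other cell types, T cell and myeloid markers had means near or below 5, while stromal markers, given further below, had higher ones. The mean of 10 T cell markers lay between 5.26 and 5.30 with 4-OHT and at 5.36 with vehicle in KM-H2, and between 4.72 and 4.77 with 4-OHT and between 4.68 and 4.72 with vehicle in L428. The mean of 10 myeloid markers lay between 4.70 and 4.72 with 4-OHT and between 4.85 and 4.91 with vehicle in KM-H2, and between 4.78 and 4.89 with 4-OHT and between 4.77 and 4.83 with vehicle in L428.

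The response was higher in KM-H2 for 2078 genes, 15.1% of those tested, and lower for 1666 genes, 12.1%, so 27.3% differed in either direction. In bulk samples like these, fewer cells of a kind and less RNA per cell cannot be told apart. Under cyclic loess scaling the counts were 1610 higher and 1866 lower, and under median centring 2327 higher and 1570 lower. The median size of a called difference was 0.534 log2 units, 559 differences reached 1 (226 higher and 333 lower in KM-H2), and 84 reached 2 (52 higher and 32 lower). Over all tested genes the median difference was 0.018. In KM-H2 alone 11.8% of genes rose and 14.4% fell with 4-OHT, and in L428 alone 14.1% rose and 20.6% fell. Among the called differences, 1036 genes (7.55% of those tested) changed only by the KM-H2 call, 1657 (12.1%) only by the L428 call, 463 (3.37%) changed in the same direction by unequal amounts and 165 (1.2%) were called in neither line.

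Genes that rose in KM-H2 and fell in L428 numbered 189, 1.38% of those tested, and genes that fell in KM-H2 and rose in L428 numbered 234, 1.71%. Together they made up 11.3% of the called differences. Scaling moved this split either way: under cyclic loess it was 137 and 276, and under median centring 228 and 212. Most of these opposite changes were small. In the first class the median response was 0.33 in KM-H2 and -0.32 in L428, and the smaller of the 2 responses was under 0.25 for 90 genes. In the second class the medians were -0.40 in KM-H2 and 0.40 in L428, and the smaller response was under 0.25 for 52 genes. Both responses reached 0.5 in 12 genes of the first class and 32 of the second. Of the genes in these classes, 5 and 7 lay below 5 on every array of a line. Single arrays mattered for the counts: the first class held 117 genes without the first KM-H2 4-OHT array, 111 without the first KM-H2 vehicle array and 107 without the second L428 vehicle array, and the second class held 153 without the first KM-H2 vehicle array.

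**Figure D1:**
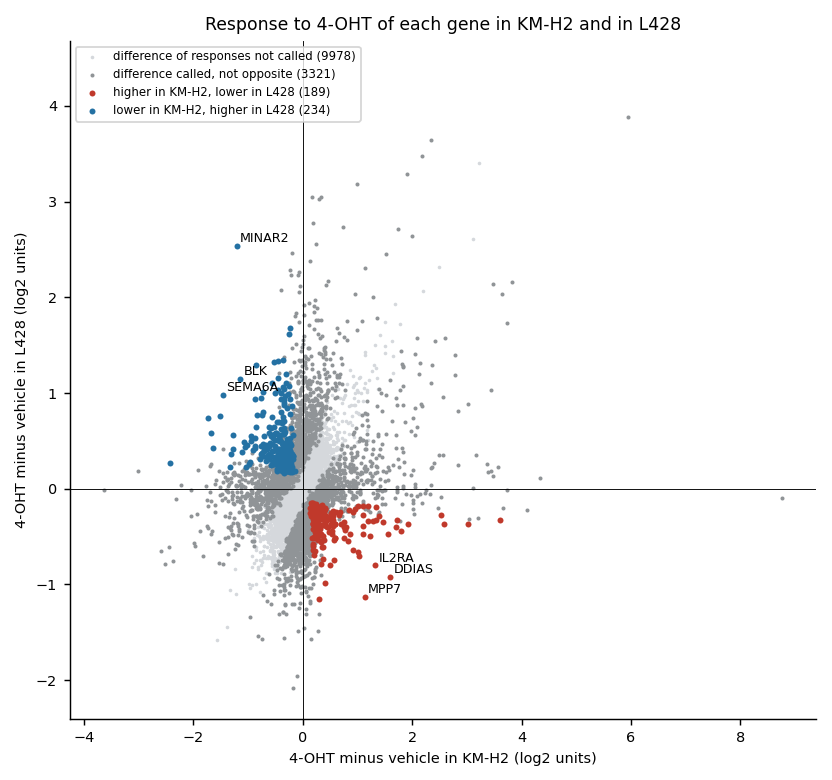
Each point is 1 of the 13722 tested genes, with its log2 change with 4-OHT over vehicle in KM-H2 on the horizontal axis and in L428 on the vertical axis (n = 2 arrays per group). Red points, 189, rose in KM-H2 and fell in L428, blue points, 234, fell in KM-H2 and rose in L428, dark grey points have another called difference and light grey points none.

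Ranked by the smaller of the 2 responses, the first 12 genes that rose in KM-H2 and fell in L428 were MPP7, DDIAS, IL2RA, MSI2, C1GALT1, CCDC150, POLR3G, TPMT, RAD54B, ARSB, RFC3 and KIF11. MPP7, a scaffold protein of cell polarity, had 7.72 and 7.96 with 4-OHT and 6.75 and 6.68 with vehicle in KM-H2, and 5.51 and 5.24 with 4-OHT and 6.44 and 6.57 with vehicle in L428. The arms stood apart in each line, in opposite orders, with responses of 1.13 in KM-H2 and -1.13 in L428 and a difference of 2.26 ± 0.17 (SE, n = 2 arrays per group, adjusted p = 3.6e-07). DDIAS, a suppressor of apoptosis after DNA damage, had 8.83 and 8.87 with 4-OHT and 7.28 and 7.22 with vehicle in KM-H2, and 6.64 and 6.48 with 4-OHT and 7.45 and 7.52 with vehicle in L428. With vehicle the lines were close for this gene, and with 4-OHT they lay over 2 log2 units apart, the difference of responses being 2.53 ± 0.12 (adjusted p = 5.7e-09).

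IL2RA, the alpha chain of the interleukin-2 receptor (CD25), had 8.29 and 8.28 with 4-OHT and 6.98 and 6.95 with vehicle in KM-H2, and 5.77 and 5.62 with 4-OHT and 6.35 and 6.64 with vehicle in L428. It rose 2.5-fold in KM-H2 and fell 1.74-fold in L428 (difference 2.12 ± 0.15, adjusted p = 2.47e-07). KIF11, a motor of the mitotic spindle, had 10.37 and 10.23 with 4-OHT and 9.69 and 9.73 with vehicle in KM-H2, and 9.29 and 9.16 with 4-OHT and 9.77 and 9.71 with vehicle in L428. The vehicle arrays of the lines overlapped for KIF11 while the 4-OHT arrays lay on either side of them, and the difference was 1.10 ± 0.093 (adjusted p = 1.27e-06). RFC3, a subunit of the clamp loader of DNA replication, also had close vehicle levels in the lines, with 10.97 and 10.87 with 4-OHT and 10.15 and 10.16 with vehicle in KM-H2, against 9.63 and 9.42 with 4-OHT and 10.02 and 10.07 with vehicle in L428 (difference 1.28 ± 0.095, adjusted p = 3.73e-07).

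The other 7 had differences between 1.11 and 1.73. They were MSI2, an RNA-binding protein (1.73), C1GALT1, which builds the core of O-linked glycans (1.67), CCDC150 (1.55), TPMT, which methylates thiopurine drugs (1.37), POLR3G, a subunit of RNA polymerase III (1.31), ARSB, a lysosomal sulfatase (1.12), and RAD54B, a DNA repair protein (1.11). RAD54B was below 5 on all KM-H2 arrays and left the class in 4 of the 8 fits that omitted an array (without the second KM-H2 4-OHT, the second KM-H2 vehicle, the second L428 4-OHT or the second L428 vehicle array). CCDC150 was not tested with a floor of 7.

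Ranked in the same way, the reverse class was led by MINAR2, BLK, SEMA6A, ANK3, SELENOP, CTSS, PTGIR, LMO4, CAVIN3, SCN11A, SMIM14 and KCNA1. MINAR2 had 5.98 and 5.96 with 4-OHT and 7.10 and 7.26 with vehicle in KM-H2, and 9.86 and 9.95 with 4-OHT and 7.39 and 7.34 with vehicle in L428. It fell 2.31-fold in KM-H2 and rose 5.84-fold in L428, which made a difference of -3.75 ± 0.12 (SE, n = 2 arrays per group, adjusted p = 1.31e-10). BLK, a Src family kinase of B cells, had 7.27 and 7.26 with 4-OHT and 8.36 and 8.45 with vehicle in KM-H2, and 8.65 and 8.52 with 4-OHT and 7.33 and 7.53 with vehicle in L428. The 4-OHT arrays of KM-H2 lay near the L428 vehicle arrays, the L428 4-OHT arrays lay above the KM-H2 vehicle arrays, and the difference was -2.29 ± 0.12 (adjusted p = 1.56e-08).

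SEMA6A, a transmembrane semaphorin, had 6.87 and 6.80 with 4-OHT and 8.34 and 8.26 with vehicle in KM-H2, and 6.61 and 6.55 with 4-OHT and 5.47 and 5.73 with vehicle in L428. Its arms stood apart in both lines, and the difference was -2.44 ± 0.14 (adjusted p = 4.05e-08). CTSS, cathepsin S, which cuts the invariant chain of MHC class II, had 8.36 and 8.35 with 4-OHT and 9.21 and 9.15 with vehicle in KM-H2, and 9.14 and 9.23 with 4-OHT and 8.35 and 8.47 with vehicle in L428. The 4-OHT arrays of each line lay near the vehicle arrays of the other, and the difference was -1.60 ± 0.095 (adjusted p = 4.81e-08). CAVIN3, a protein of caveolae, had 8.14 and 8.28 with 4-OHT and 9.91 and 9.99 with vehicle in KM-H2, against 7.40 and 7.43 with 4-OHT and 6.76 and 6.59 with vehicle in L428. It fell 3.35-fold in KM-H2 and rose 1.67-fold in L428 (difference -2.48 ± 0.12, adjusted p = 5.7e-09).

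The other 7 of this class ranged between -1.51 and -2.28. They were PTGIR, the prostacyclin receptor (-2.28), SELENOP, which carries selenium in plasma (-2.15), ANK3, a membrane anchor protein (-1.82), SMIM14 (-1.74), LMO4, a LIM-domain cofactor (-1.71), KCNA1, a potassium channel (-1.53), and SCN11A, a sodium channel (-1.51). SELENOP had only 5.14 and 5.14 with 4-OHT against 6.09 and 5.91 with vehicle in KM-H2, and 4.78 and 5.15 with 4-OHT against 3.68 and 3.67 with vehicle in L428, so its L428 vehicle arrays were near background. It left the class with a floor of 6 or 7, and SMIM14 left it with a floor of 7 and without the second KM-H2 4-OHT array.

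**Figure D2:**
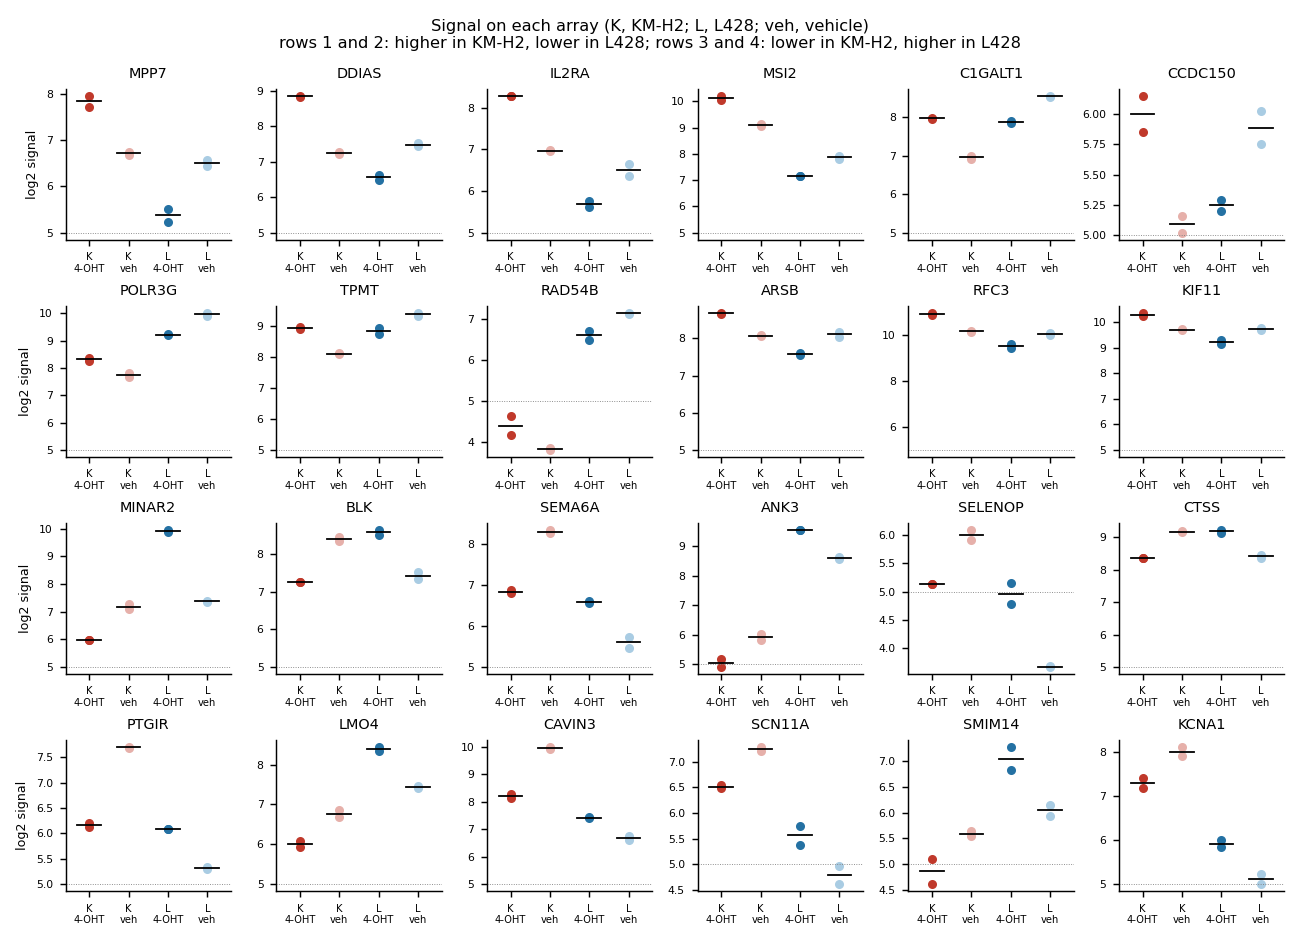
Log2 signal on each array for the 12 leading genes of either opposite class, with KM-H2 (K) left of L428 (L) and 4-OHT left of vehicle (veh). Points are arrays, black bars are means of 2 arrays and the dotted line marks 5. For MPP7 the KM-H2 arrays with 4-OHT lie above those with vehicle while the L428 arrays lie the other way round, and BLK shows the reverse.

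Opposite changes outside these 24 were followed in fixed gene lists. Over all genes 15.1% had a higher and 12.1% a lower response in KM-H2. List counts below are to be read against these shares. BCL2A1, an anti-apoptotic NF-kB target, had 4.72 and 4.71 with 4-OHT and 7.14 and 7.13 with vehicle in KM-H2, and 7.10 and 7.25 with 4-OHT and 6.84 and 6.96 with vehicle in L428. Almost all of its difference of -2.69 ± 0.14 (adjusted p = 1.2e-08) came from KM-H2, since the rise in L428 was 0.27. Its KM-H2 4-OHT arrays were near background, so no fold is given for that fall. CXCR4, a chemokine receptor of lymphocyte homing, had 10.51 and 10.45 with 4-OHT and 11.01 and 10.96 with vehicle in KM-H2, and 10.90 and 10.82 with 4-OHT and 9.82 and 9.90 with vehicle in L428. The rise of 1.00 in L428 was the larger change, and the difference was -1.50 ± 0.077 (adjusted p = 1.27e-08). MYO1G, a lymphocyte membrane myosin, had 7.48 and 7.62 with 4-OHT and 9.23 and 9.21 with vehicle in KM-H2, against 10.37 and 10.41 with 4-OHT and 9.83 and 9.78 with vehicle in L428 (difference -2.26 ± 0.09, adjusted p = 1.43e-09). PTPN2, a phosphatase that dephosphorylates JAK kinases, had 8.95 and 8.82 with 4-OHT and 7.73 and 7.64 with vehicle in KM-H2, against 6.82 and 6.97 with 4-OHT and 7.12 and 7.35 with vehicle in L428. It rose 2.3-fold in KM-H2 and fell 1.26-fold in L428 (difference 1.54 ± 0.13, adjusted p = 1.78e-06).

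Large differences also arose in 1 line alone. LUM, the extracellular matrix proteoglycan lumican, had 12.30 and 12.05 with 4-OHT and 3.57 and 3.25 with vehicle in KM-H2, and 3.28 and 3.30 with 4-OHT and 3.44 and 3.34 with vehicle in L428. All arrays but the KM-H2 4-OHT pair were near background, so the size of the difference, 8.87 ± 0.18 (SE, n = 2 arrays per group, adjusted p = 2.23e-12), depends on the background level. DCN, the related proteoglycan decorin, had 6.92 and 6.6 with 4-OHT against 3.49 and 3.26 with vehicle in KM-H2, and 3.54 and 3.46 with 4-OHT against 3.37 and 3.30 with vehicle in L428. Both belong to a list of 10 stromal markers, whose mean lay between 6.59 and 6.73 with 4-OHT and between 5.43 and 5.52 with vehicle in KM-H2, and between 5.34 and 5.42 with 4-OHT and between 5.20 and 5.21 with vehicle in L428. The median response of the 9 tested members was -0.0076 in KM-H2, so the rise of the mean was not shared by most of them. LUM and DCN had a higher called difference, and ACTA2 and COL1A1 a lower one. Of other stromal markers, picked for this check after their values were seen, COL1A1, a fibrillar collagen, had 6.84 and 6.81 with 4-OHT against 7.39 and 7.49 with vehicle in KM-H2 (difference of responses -0.68, adjusted p = 0.00105), and THY1 lay between 5.20 and 5.21 with 4-OHT and between 5.19 and 5.23 with vehicle in KM-H2. The rest of the largest positive differences were MC4R, the melanocortin-4 receptor (4.32), NTS, neurotensin (4.22), F2RL2, a protease-activated receptor (3.86), ADGRV1, an adhesion receptor (3.76), EXOC6B, a subunit of the exocyst (3.53), SH3D19 (3.34) and PLD1, phospholipase D1 (3.34). All 7 rose in KM-H2 and were not called in L428, where 6 of them, all but EXOC6B, were below 5 on every array. The KM-H2 vehicle arrays of ADGRV1, EXOC6B and PLD1 were below 5 too, so the size of these differences depends on the background level.

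Among the largest negative differences, CCL5, a chemokine that attracts T cells, had 5.85 and 6.03 with 4-OHT and 9.64 and 9.52 with vehicle in KM-H2, and 10.76 and 10.76 with 4-OHT and 10.72 and 10.82 with vehicle in L428. It fell 12.5-fold in KM-H2, and the arms overlapped in L428 (difference -3.63 ± 0.1, adjusted p = 4.91e-11). ENPP2, autotaxin, which makes lysophosphatidic acid, had 4.86 and 4.98 with 4-OHT and 4.51 and 4.64 with vehicle in KM-H2, and 9.86 and 10.17 with 4-OHT and 5.88 and 5.44 with vehicle in L428. It rose 20.5-fold in L428 and was near background on every KM-H2 array (difference -4.01 ± 0.2, adjusted p = 1.18e-08). LGALS2, galectin-2, fell in KM-H2 alone (-3.19), while PRXL2A (-2.89), TP53INP1, a p53-induced protein of autophagy (-2.73), HTR2B, a serotonin receptor (-2.72), PCYT1B, an enzyme of phosphatidylcholine synthesis (-2.66), and ZC3H12B (-2.59) rose in L428 alone by the test. TP53INP1 and ZC3H12B were below 5 on every KM-H2 array and on the L428 vehicle arrays, so the size of their differences depends on the background level. The KM-H2 vehicle arrays of PRXL2A and the L428 vehicle arrays of LGALS2 were below 5 as well.

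Of 35 tested FOXO targets, 15 rose and 1 fell in KM-H2, where 11.8% of all genes rose, and 21 rose and 0 fell in L428, where 14.1% rose. These counts were not tested against each other. Of these 35 FOXO-induced targets, the response was higher in KM-H2 for 7 and lower for 14, 14 were not called, and none was called in opposite directions. The median responses were 0.10 in KM-H2 and 0.57 in L428, and the median difference was -0.24, against 0.018 over all genes. FBXO32, a ubiquitin ligase subunit, had 12.51 and 12.44 with 4-OHT against 6.43 and 6.63 with vehicle in KM-H2, and 10.44 and 10.33 with 4-OHT against 6.42 and 6.55 with vehicle in L428. Vehicle levels overlapped between the lines, and it rose in both, 61.5-fold in KM-H2 and 14.9-fold in L428 (difference 2.05 ± 0.11, adjusted p = 1.94e-08). TNFSF10, the death ligand TRAIL, and PMAIP1, the pro-apoptotic protein NOXA, also rose more in KM-H2 (1.39 and 1.38). DEPP1, an autophagy regulator, had 9.68 and 9.68 with 4-OHT against 8.74 and 8.62 with vehicle in KM-H2, and 8.95 and 8.76 with 4-OHT against 5.58 and 5.77 with vehicle in L428 (difference -2.18 ± 0.12, adjusted p = 2.97e-08). BCL2L11, the pro-apoptotic protein BIM, had 5.27 and 5.39 with 4-OHT against 5.26 and 5.19 with vehicle in KM-H2, and 8.49 and 8.34 with 4-OHT against 6.85 and 7.04 with vehicle in L428. Its rise was thus called in L428 alone (difference -1.37 ± 0.15, adjusted p = 1.18e-05). CDKN1B, which encodes p27 and restrains the cell cycle, had responses of 0.60 in KM-H2 and 1.07 in L428 (difference -0.47, adjusted p = 0.00252).

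The forkhead core motif GTAAACA was looked for on both strands (its reverse complement is TGTTTAC) in RefSeq promoter windows of 250 bases before and 50 after each gene's start (GRCh38.p14). It was found in 1 of 160 windows of genes that rose in KM-H2 and fell in L428 (0.625%), in 8 of 181 windows of the reverse class (4.42%), in 233 of 10822 windows of tested genes (2.15%) and in 931 of all 27305 windows (3.41%). A match describes letters and is no evidence of binding. Shown are 4 of the genes named here with a match before the start, all with a lower response in KM-H2. Some named genes were left out of this choice, among them genes with a higher response. The 4 are thus no count over all named genes, and their shared sign is not read as a pattern. The 250 bases before the start are printed 5′ to 3′ along the gene, with the motif in capitals, for SELENOP (chr5:42811893-42812142, minus strand), DEPP1 (chr10:44978810-44979059, minus strand), JUNB (chr19:12791236-12791485, plus strand) and BCL2L11 (chr2:111120664-111120913, plus strand).
SELENOP: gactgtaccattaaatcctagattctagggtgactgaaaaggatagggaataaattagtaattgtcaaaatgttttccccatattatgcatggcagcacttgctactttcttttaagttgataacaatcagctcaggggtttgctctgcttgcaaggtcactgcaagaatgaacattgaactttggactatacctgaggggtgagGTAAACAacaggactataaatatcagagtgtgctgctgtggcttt
DEPP1: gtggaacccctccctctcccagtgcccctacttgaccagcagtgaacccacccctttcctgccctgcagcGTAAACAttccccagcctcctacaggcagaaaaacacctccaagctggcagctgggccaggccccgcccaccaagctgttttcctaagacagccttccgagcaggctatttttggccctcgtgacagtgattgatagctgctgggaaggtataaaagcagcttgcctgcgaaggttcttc
JUNB: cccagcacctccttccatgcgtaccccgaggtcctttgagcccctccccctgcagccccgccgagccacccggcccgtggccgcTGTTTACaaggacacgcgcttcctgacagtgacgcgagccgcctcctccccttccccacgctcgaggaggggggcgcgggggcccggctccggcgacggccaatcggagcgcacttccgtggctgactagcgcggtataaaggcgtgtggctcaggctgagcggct
BCL2L11: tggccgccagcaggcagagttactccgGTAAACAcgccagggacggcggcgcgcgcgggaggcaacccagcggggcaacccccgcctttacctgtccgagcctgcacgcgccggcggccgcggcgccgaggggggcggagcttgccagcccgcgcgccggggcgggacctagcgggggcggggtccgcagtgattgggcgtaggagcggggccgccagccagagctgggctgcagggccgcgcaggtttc
The first base of the motif lay 45 bases before the start in SELENOP, 180 in DEPP1, 166 in JUNB and 223 in BCL2L11. In JUNB the motif reads on the other strand.

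Regulators of B cell fate responded unequally in the lines. None of the plasma cell genes, germinal centre genes or repressors counted below was called in opposite directions. PRDM1, the master regulator of plasma cell differentiation, had 9.12 and 8.92 with 4-OHT against 6.52 and 6.79 with vehicle in KM-H2, and 10.18 and 10.17 with 4-OHT against 8.87 and 8.90 with vehicle in L428. It rose 5.16-fold in KM-H2, where its vehicle level was lower, and 2.45-fold in L428 (difference 1.07 ± 0.13, adjusted p = 2.65e-05). BCL6, the germinal centre repressor, had 7.6 and 7.55 with 4-OHT against 7.63 and 7.69 with vehicle in KM-H2, and 8.40 and 8.36 with 4-OHT against 7.31 and 7.25 with vehicle in L428. It rose in L428 alone by the test (difference -1.18 ± 0.11, adjusted p = 2.11e-06). ID3, an inhibitor of E proteins, had 10.43 and 10.36 with 4-OHT against 7.91 and 7.91 with vehicle in KM-H2, and 5.67 and 5.88 with 4-OHT against 5.87 and 6.08 with vehicle in L428. The KM-H2 arms stood 2.48 apart while those of L428 overlapped (difference 2.68 ± 0.14, adjusted p = 1.18e-08). ID2, a related inhibitor, fell by 1.22 in KM-H2 with no call in L428 (difference -1.25). Of 14 plasma cell genes, 5 had a higher and 2 a lower response in KM-H2, the 5 being 3 without the first KM-H2 4-OHT, the second KM-H2 vehicle or either L428 vehicle array. Of 14 germinal centre genes 2 had a higher and 6 a lower response, and of 22 lymphoid and plasma cell repressors 5 had a higher and 7 a lower one. Called shares were 50% of plasma cell genes, 57.1% of germinal centre genes and 54.5% of these repressors, against 27.3% of all genes. IRF4, a factor of plasma cells and activated B cells, differed by 0.28 (adjusted p = 0.0384), a call lost in several alternatives, among them cyclic loess (adjusted p = 0.206). The Hodgkin antigen TNFRSF8 (CD30) fell in both lines, and its difference of 0.07 was not called (adjusted p = 0.657).

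A difference was called for 38.9% of 18 tested B cell identity genes, against 27.3% of all genes. None of these 18 had a higher response in KM-H2 by limma, and 7 had a lower one (9 differed in either direction at an unadjusted p below 0.05). Among them, besides BLK, were CR2, the complement receptor CD21 (-1.94), FCRLA (-1.72), LYN, a Src family kinase (-0.92), and CD22, an inhibitory receptor (-1.25). CR2 had 8.04 and 7.95 with 4-OHT against 10.62 and 10.54 with vehicle in KM-H2, and 3.87 and 3.90 with 4-OHT against 4.53 and 4.53 with vehicle in L428, where it was near background. FCRLA and CD22 were also below 5 on all L428 arrays. In B cell receptor and Fc receptor signalling 1 of 17 was higher (0 without the first KM-H2 4-OHT, the second KM-H2 vehicle, either L428 4-OHT or the first L428 vehicle array) and 8 lower, and VAV2 was called in opposite directions (-0.53 in KM-H2 and 0.64 in L428). In the insulin, PI3K and AKT pathway 2 of 20 were higher (1 without the first KM-H2 4-OHT, the second KM-H2 vehicle or the second L428 vehicle array) and 7 lower, with PIK3CB (-0.41 and 0.51) and PIK3R1 (-0.38 and 0.19), a catalytic and a regulatory subunit of PI3K, moving down in KM-H2 and up in L428.

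MHC class II genes fell further in KM-H2: of 13 tested, 12 fell in KM-H2 and 8 in L428. Over all genes 14.4% fell in KM-H2 and 20.6% in L428. A difference was called for 76.9% of the class II genes, against 27.3% of all genes. Of these 13, 9 had a lower and 1 a higher response in KM-H2, and the median responses were -0.83 in KM-H2 and -0.30 in L428. HLA-DPB1, a class II beta chain, had 9.04 and 9.03 with 4-OHT against 10.92 and 10.89 with vehicle in KM-H2, and 10.38 and 10.35 with 4-OHT against 10.82 and 10.79 with vehicle in L428. It fell 3.65-fold in KM-H2 and 1.36-fold in L428 (difference -1.43 ± 0.07, adjusted p = 1.02e-08). HLA-DPA1, the partner chain, differed by -1.04, and IFI30, a thiol reductase of antigen processing, by -0.63. Opposite changes were those of CTSS, given above, and RFXANK, a subunit of the factor that binds class II promoters, which rose by 0.26 in KM-H2 and fell by 0.29 in L428. Of 9 genes of MHC class I presentation, 0 were higher and 4 lower by limma (7 differed at an unadjusted p below 0.05, and 7 were lower under cyclic loess), led by PSMB9, an immunoproteasome subunit (-0.61).

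Of 25 tested mitosis genes, 4 rose and 2 fell in KM-H2, and 0 rose and 21 fell in L428. Over all genes 11.8% rose and 14.4% fell in KM-H2, and 14.1% rose and 20.6% fell in L428. A difference was called for 76% of the mitosis genes, against 27.3% of all genes. Of these 25, 19 had a higher response in KM-H2 and 0 a lower one by limma (21 differed at an unadjusted p below 0.05), and the median responses were 0.042 in KM-H2 and -0.49 in L428. CCNB1, cyclin B1, had 10.56 and 10.38 with 4-OHT against 10.31 and 10.27 with vehicle in KM-H2, and 10.19 and 10.22 with 4-OHT against 10.97 and 10.78 with vehicle in L428. It was not called in KM-H2 and fell 1.59-fold in L428 (difference 0.85 ± 0.098, adjusted p = 2.03e-05). KIF20A, a motor of cytokinesis (0.95), and PTTG1, securin (0.80), had the same calls, and AURKA, a spindle kinase, and CDC20, an activator of the anaphase-promoting complex, joined KIF11 in moving in opposite directions (0.26 and 0.19 in KM-H2, -0.39 and -0.58 in L428). FOXM1, a forkhead factor that drives mitotic genes, fell in L428 alone by the test, and differed by 0.66. Over all alternatives other than the threshold of 0.5, between 18 and 21 mitosis genes were higher and 0 lower.

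**Figure D3:**
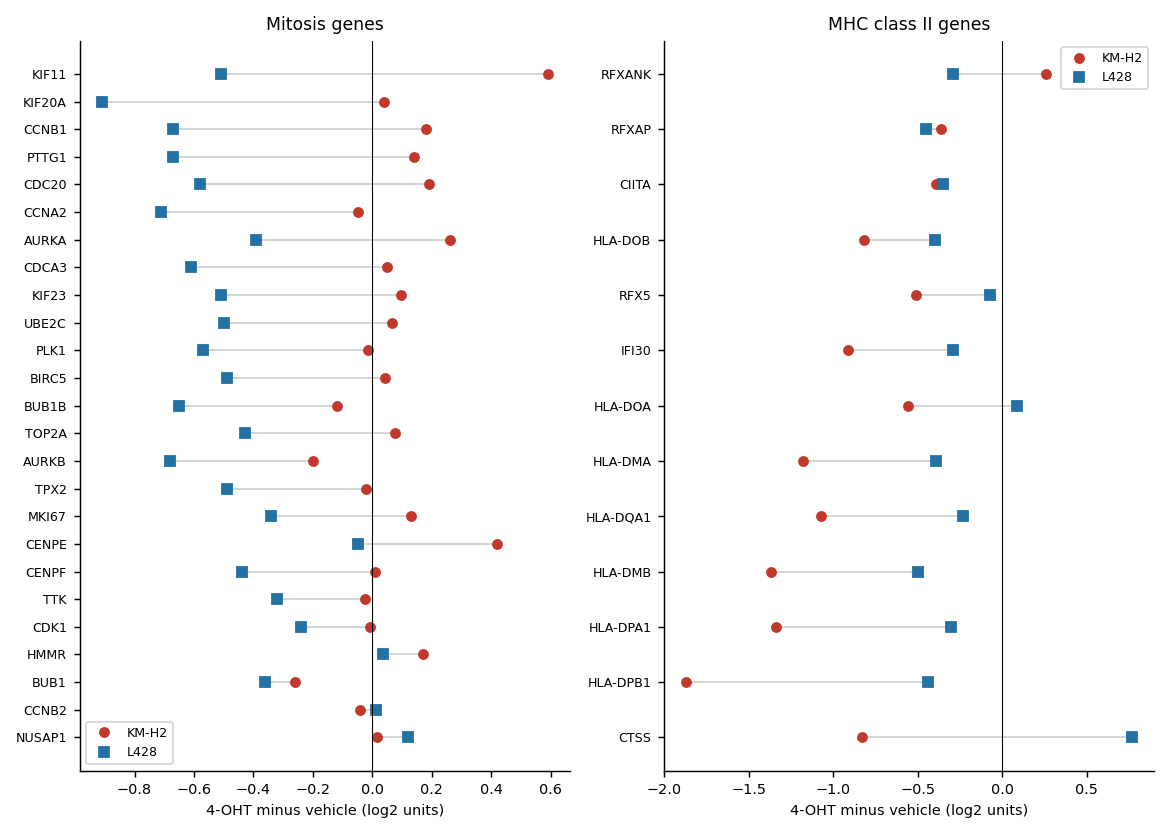
Log2 change with 4-OHT over vehicle for each tested mitosis gene (left) and MHC class II gene (right), in KM-H2 (red circles) and L428 (blue squares), joined by a line and sorted by the difference of responses. Median mitosis responses were 0.042 in KM-H2 and -0.49 in L428, and median class II responses -0.83 in KM-H2 and -0.30 in L428.

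S phase genes and genes of MYC and ribosome biogenesis showed smaller differences of the same sign. Of 25 S phase genes 13 were higher and 2 lower (1 without the second KM-H2 4-OHT, either KM-H2 vehicle, the first L428 4-OHT or the first L428 vehicle array), with medians of -0.34 in KM-H2 and -0.63 in L428. MCM10, a replication initiation factor, differed by 0.90, CDC45, a helicase cofactor, by 0.82, and MCM6, a helicase subunit, by -0.61. Of 21 genes of MYC and ribosome biogenesis 13 were higher and 2 lower, with medians of -0.14 in KM-H2 and -0.45 in L428. MYC itself was one of the 2 lower genes, with 6.54 and 6.67 with 4-OHT against 9.03 and 9.06 with vehicle in KM-H2, and 9.47 and 9.47 with 4-OHT against 10.07 and 10.11 with vehicle in L428. It fell 5.43-fold in KM-H2 and 1.53-fold in L428 (difference -1.83 ± 0.093, adjusted p = 1.2e-08). The other was NOP58, a nucleolar protein (-0.47), while POLR1B, a subunit of RNA polymerase I, differed by 0.50. Of 20 G1 cyclins, kinases and inhibitors 5 were higher, among them CDC25A (0.68), a phosphatase that activates CDKs, and CDK4 (0.52), and 3 were lower.

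Metabolic genes were mixed. SLC2A1, the glucose transporter GLUT1, had 12.55 and 12.55 with 4-OHT against 10.24 and 10.12 with vehicle in KM-H2, and 10.22 and 10.13 with 4-OHT against 9.94 and 9.95 with vehicle in L428. It rose 5.15-fold in KM-H2 and 1.17-fold in L428 (difference 2.13 ± 0.076, adjusted p = 5.67e-10). Of 24 genes of glycolysis and glucose transport 8 were higher and 4 lower, and of 18 hypoxia-induced genes 2 were higher and 3 lower, among them BNIP3L, a mitophagy receptor, at -0.45 in KM-H2 and 1.16 in L428. The called share of the hypoxia-induced genes, 27.8%, was near the 27.3% of all genes. PFKM, a phosphofructokinase, was called in opposite directions (-0.45 and 0.32). Of 20 genes of cholesterol and fatty acid synthesis 8 were higher and 3 lower, the 3 being 1 without the first KM-H2 vehicle or the second L428 4-OHT array. HMGCS1, SQLE and IDI1, enzymes of the sterol pathway, rose in KM-H2 by 0.25, 0.19 and 0.31 and fell in L428 by 0.20, 0.24 and 0.28. Of 21 genes of amino acid transport and ATF4 targets 8 were higher, a count of 5 without the second KM-H2 vehicle array, and 2 were lower, including SLC38A2, a glutamine transporter that rose in L428 alone (-1.12).

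Among signalling genes of Hodgkin cells, called differences were more often lower than higher in KM-H2, as against 12.1% lower and 15.1% higher over all genes. That balance over all genes turned where a difference had to reach 0.5, with 1137 lower and 974 higher. The lists share members, so their counts are not independent. IL4R, for example, was counted among JAK-STAT genes, Hodgkin cell markers and cytokine receptors. Of 19 JAK-STAT genes 12 were lower and 5 higher, the 5 being 3 without the first KM-H2 4-OHT or the first L428 vehicle array. SOCS1, an inhibitor of JAK kinases, had 6.81 and 7.0 with 4-OHT against 8.94 and 8.84 with vehicle in KM-H2, and 8.50 and 8.57 with 4-OHT against 9.07 and 9.14 with vehicle in L428 (difference -1.41 ± 0.11, adjusted p = 6.51e-07). JAK3 (-0.62 and 0.31) and SOCS2 (-0.60 and 0.48) fell in KM-H2 and rose in L428, the reverse of PTPN2. Of 25 Hodgkin cell markers 14 were lower and 3 higher (5 without the first KM-H2 4-OHT array), with EBI3, a cytokine subunit (-1.67), and TNFRSF9, the receptor 4-1BB (-1.37), after CCL5, and with IL21R (-0.24 and 0.30) and NOTCH1 (-0.32 and 0.30) in opposite directions. Of 21 NF-kB subunits and targets 7 were lower, 12 were not called and 2 were higher, the 2 being 1 without either KM-H2 vehicle, the second KM-H2 4-OHT, the first L428 4-OHT or the second L428 vehicle array. RELB, an NF-kB subunit, and CFLAR, an inhibitor of caspase-8, joined BCL2A1 in falling in KM-H2 and rising in L428 (-0.48 and 0.21, and -0.53 and 0.26).

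Of 24 interleukins and cytokine receptors 11 were lower and 4 higher, IL15 moving by -0.47 in KM-H2 and 0.70 in L428 and IL13, a growth factor of Hodgkin cells, falling in L428 alone (1.73). IL13 was below 5 on every KM-H2 array. Of 14 chemokines and their receptors 5 were higher and 4 lower, and CCL1 rose by 0.56 in KM-H2 and fell by 0.28 in L428. Of 22 members of the TNF and TNF receptor superfamilies 3 were higher and 7 lower, and TNFSF4, the OX40 ligand, rose in L428 alone (-2.52) and was below 5 on all KM-H2 arrays and on the L428 vehicle arrays. Of 23 interferon-induced genes 1 was higher and 9 lower, a called share of 43.5% against 27.3% of all genes. OAS1, an antiviral enzyme, had 6.95 and 6.86 with 4-OHT against 8.29 and 8.27 with vehicle in KM-H2, and 6.25 and 6.44 with 4-OHT against 6.23 and 6.12 with vehicle in L428 (difference -1.55 ± 0.13, adjusted p = 1.71e-06). XAF1 (-1.55) and IFIT5 (-1.42) were likewise called in KM-H2 alone.

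A difference was called for 47.1% of 17 AP-1 and immediate early genes, against 27.3% of all genes. Of these 17, 0 were higher and 8 lower by limma (9 differed at an unadjusted p below 0.05), with JUN at -0.24 in KM-H2 and 0.45 in L428. This count of 8 was 4, 5, 3, 4 and 5 without the first KM-H2 4-OHT, the second KM-H2 4-OHT, the first KM-H2 vehicle, the second L428 4-OHT and the first L428 vehicle array. FOSL2, an AP-1 subunit, rose in L428 alone (-1.72), and JUNB fell in KM-H2 alone (-0.60). Of 13 MAPK feedback genes 2 were higher and 5 lower. DUSP4 and DUSP6, phosphatases of MAP kinases, fell in KM-H2 and rose in L428 (-0.36 and 1.35, and -0.50 and 0.45), DUSP6 being near background in KM-H2, and the ETS factor ETV5 did the reverse (1.11 and -0.47).

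Of 27 adhesion and migration genes 5 were higher and 8 lower, the 5 being 3 without the first KM-H2 4-OHT array and 2 without the first KM-H2 vehicle or the first L428 4-OHT array. RGS1, which dampens chemokine receptor signalling, had 10.03 and 9.98 with 4-OHT against 6.23 and 6.13 with vehicle in KM-H2, and 10.14 and 10.08 with 4-OHT against 7.96 and 7.95 with vehicle in L428. The 4-OHT arrays of the lines lay close together, and the difference of 1.66 ± 0.095 (adjusted p = 3.1e-08) came with a lower vehicle level in KM-H2. ITGA4 and CD44, adhesion receptors, each moved by -0.31 in KM-H2 and 0.39 in L428. Of 18 genes of autophagy and lysosome 0 were higher (1 without the second KM-H2 4-OHT, the second L428 4-OHT or the first L428 vehicle array) and 6 lower by limma (8 differed at an unadjusted p below 0.05), with SQSTM1, an autophagy receptor (-0.23 and 0.39), and CTSD, cathepsin D (-0.25 and 0.19), in opposite directions. Of 15 BCL2 family genes 2 were higher (1 without any single array other than the first KM-H2 vehicle or the first L428 4-OHT array) and 5 lower, the 5 being 3 without the second KM-H2 4-OHT, the first KM-H2 vehicle, the first L428 4-OHT or the second L428 vehicle array. Of 15 forkhead factors 1 was higher and 3 were lower, the 3 being 1 without the first KM-H2 4-OHT, the second KM-H2 vehicle, the first L428 4-OHT or the first L428 vehicle array, with FOXP2 at -1.12 in KM-H2 and 0.38 in L428, where it was near background. Of 18 genes of the unfolded protein response 0 were higher (1 without the second KM-H2 4-OHT or the second L428 4-OHT array) and 3 lower by limma (6 differed at an unadjusted p below 0.05), HERPUD1 among them (-0.31 and 0.44).

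Of the lists that served as checks, none of 7 metallothioneins was called by limma (2 at an unadjusted p below 0.05), none of 4 T cell markers (0 at that p, and 1 called without the second L428 4-OHT array), and 1 of 8 oestrogen-induced genes, NRIP1, was (1.4), with 2 called higher without the second KM-H2 vehicle or the second L428 4-OHT array. Of 5 myeloid markers ITGAM (-1.64) and CD14 (-0.75) were lower, and of 9 stromal markers 2 were higher and 2 lower. Calls were above the 27.3% of all genes in these last lists, at 40% of myeloid and 44.4% of stromal markers, and also at 44.4% of housekeeping genes. Forkhead factors, at 26.7%, were near the share of all genes, and genes of the unfolded protein response, at 16.7%, were below it. Of 9 housekeeping genes 3 were higher, a count of 1 without any single array other than the second KM-H2 4-OHT or the first L428 4-OHT array, and 1 was lower, with SDHA at -0.62, TBP at 0.39 and ACTB at 0.15, the last not called under quantile or cyclic loess scaling (adjusted p = 0.114 and 0.178).

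**Figure D4:**
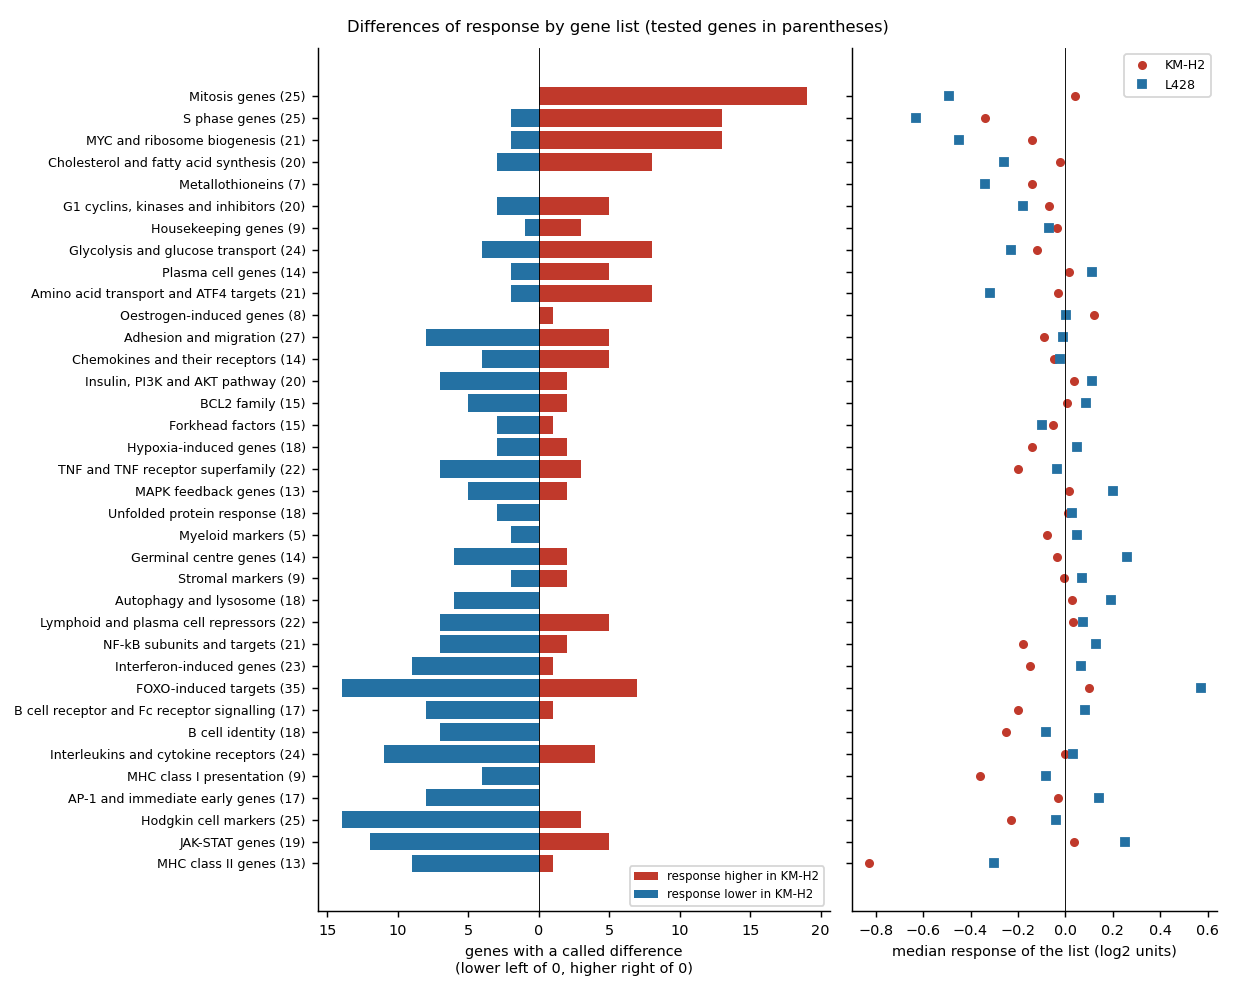
Left, the number of genes in each list (tested genes in parentheses) whose response was called higher in KM-H2 (red, right of 0) or lower in KM-H2 (blue, left of 0). Right, the median log2 change of each list in KM-H2 (red circles) and L428 (blue squares), with mitosis genes at 0.042 and -0.49. Some lists, among them those of fewer than 5 tested genes, are not drawn.

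The other 3 lines, L1236, UHO-1 and SUP-HD1, were normalised in a separate run, so each was compared only with its own vehicle arrays, over 15654 genes. Of all these genes 8.18% rose and 14.3% fell in L1236, 12.4% rose and 8.75% fell in UHO-1, and 3.37% rose and 1.83% fell in SUP-HD1. Of the 188 tested genes that rose in KM-H2 and fell in L428, 18 rose and 62 fell in L1236, 12 rose and 9 fell in UHO-1, and 2 rose and 9 fell in SUP-HD1. The share that fell in L1236 was thus 33%, against 14.3% of all genes. The calls in L1236 numbered 48 without its second 4-OHT array, against 80 with it, those in UHO-1 fell to between 8 and 11 without any 1 of its 4 arrays, against 21, and those in SUP-HD1 numbered 4, 0 and 4 without its first 4-OHT, second 4-OHT and first vehicle array, against 11.

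Of the 228 tested genes that fell in KM-H2 and rose in L428, 103 rose and 12 fell in UHO-1, a share of 45.2% rising against 12.4% of all genes. In L1236 35 rose and 46 fell, and in SUP-HD1 26 rose and 4 fell. The calls in UHO-1 numbered 74 without its second vehicle array, against 115, and those in SUP-HD1 14 and 18 without its first and second 4-OHT array, against 30. MINAR2 rose by 1.22 in UHO-1 (adjusted p = 2.17e-05), and BLK by 0.52 (adjusted p = 0.00202). CAVIN3 instead fell by 0.53 in UHO-1 (adjusted p = 0.00666), as it did in KM-H2. Called in all 3 lines, and picked by that rule after their values were seen, were POLR3G and SLC25A32, which fell in each as in L428, and KLF3, MYO1G and NCALD, which rose in each as in L428.

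**Figure D5:**
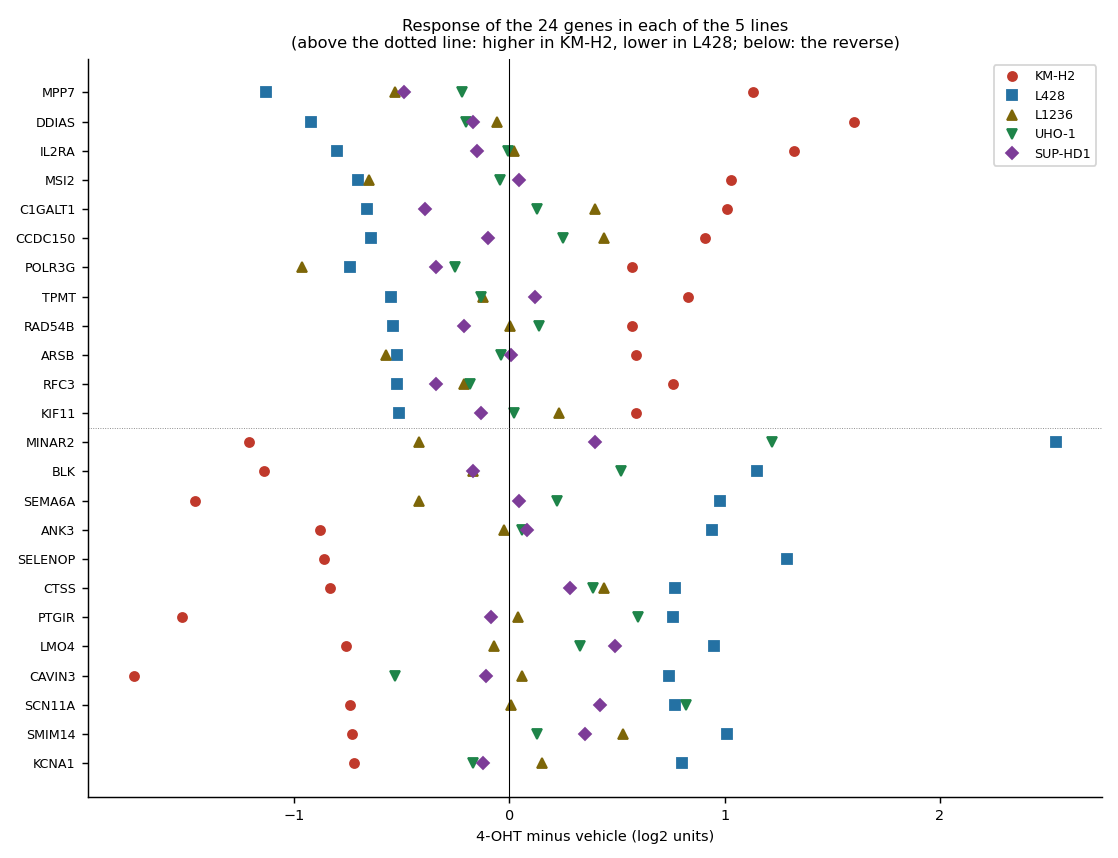
Log2 change with 4-OHT over vehicle of the 24 leading opposite genes in KM-H2 and L428 and in the other 3 lines (n = 2 arrays per group). SELENOP has no points for the last 3 lines, where it was not tested. MINAR2 lies at -1.21 in KM-H2, 2.54 in L428 and 1.22 in UHO-1.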

How the data were processed

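RNA of KM-H2 and L428 cells treated for 24 h was compared on 8 arrays, and the 12 arrays of the other lines were fitted apart. Per the labels and the series' design text, labelled single-stranded DNA was hybridised to Human Gene 1.0 ST arrays, and the authors' deposited log2 values come from RMA in Expression Console, whose version no source used here gives. The log2 scale was read from the values, and the treatment note names cells with another fusion protein, so no dose is given. Sorted values differed by at most 0.253 within the 8 arrays, at most 0.204 within the 12 and at least 0.712 between the sets, which marks 2 normalization runs.

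Groups were taken from the sample titles. The labels say only that the experiment was repeated, so the p-values reflect only how these arrays varied, which may be technical. The lowest correlation between the 2 arrays of a group was 0.995. Of 33268 probe sets, 19457 had 1 gene symbol, 1751 had several and 12060 are unnamed here. Symbols were matched to RefSeq by Entrez identifier for 19426. The probe set with the highest mean over the 8 arrays stood for a gene, and a gene needed a value of 5 or more on at least 2 arrays, which kept 13722 of 18416. limma 3.58.1 in R 4.3.3 (lmFit, eBayes with trend) fitted the 4 group means with 4 residual and 9.45 prior degrees of freedom, and the contrasts were each line's response and their difference, adjusted by Benjamini-Hochberg. The fit was tested on simulated data.

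The members and lists were chosen with earlier results of these data known. Named were the 12 genes of each opposite class with the largest smaller response, the 8 largest other differences either way, every opposite member and up to 3 other called members per list, and 10 fixed genes. Alternatives were replicate blocks, a fit of all 20 arrays, no trend, 3 scalings, floors, probe set rules, a threshold of 0.5 and leaving out each array. A further gene list is not reported here.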

Additional observations from a re-analysis of the deposited data

Results flagged for a closer look

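Every named gene whose response differed between KM-H2 and L428 by the test of the difference itself is listed here with that difference, KM-H2 minus L428, in log2 units (limma, n = 2 arrays per group). These genes were named partly for such a difference.

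Among genes that rose in KM-H2 and fell in L428, the difference was 2.26 for MPP7, 2.53 for DDIAS, 2.12 for IL2RA, 1.73 for MSI2, 1.67 for C1GALT1, 1.55 for CCDC150, 1.31 for POLR3G, 1.37 for TPMT, 1.11 for RAD54B, 1.12 for ARSB, 1.28 for RFC3 and 1.1 for KIF11. It was 0.55 for RFXANK, 0.84 for CCL1, 1.54 for PTPN2, 1.57 for ETV5, 0.45 for HMGCS1, 0.43 for SQLE, 0.6 for IDI1, 0.66 for AURKA, 0.77 for CDC20, 0.77 for ARHGAP24 and 0.54 for CORO1C.

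Among genes that fell in KM-H2 and rose in L428, the difference was -3.75 for MINAR2, -2.29 for BLK, -2.44 for SEMA6A, -1.82 for ANK3, -2.15 for SELENOP, -1.6 for CTSS, -2.28 for PTGIR, -1.71 for LMO4, -2.48 for CAVIN3, -1.51 for SCN11A, -1.74 for SMIM14 and -1.53 for KCNA1. It was -0.62 for NOTCH1, -0.54 for IL21R, -1.5 for CXCR4, -1.17 for IL15, -0.69 for RELB, -2.69 for BCL2A1, -0.79 for CFLAR, -0.93 for JAK3, -1.08 for SOCS2, -0.7 for JUN, -1.71 for DUSP4 and -0.95 for DUSP6. It was -1.17 for VAV2, -0.92 for PIK3CB, -0.56 for PIK3R1, -0.76 for PFKM, -1.6 for BNIP3L, -0.75 for HERPUD1, -0.62 for SQSTM1, -0.45 for CTSD, -0.7 for ITGA4, -0.71 for CD44, -1.26 for VIM and -2.26 for MYO1G. It was -0.96 for FERMT3 and -1.51 for FOXP2.

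Among genes called in the same direction in both lines, the difference was 2.05 for FBXO32, -2.18 for DEPP1, 1.39 for TNFSF10, -1.94 for CR2, -1.29 for GCSAM, 1.07 for PRDM1, -1.43 for HLA-DPB1, -1.04 for HLA-DPA1, -0.63 for IFI30, -0.61 for PSMB9, -1.37 for TNFRSF9 and -1.32 for IL10RA. It was 0.45 for CD83, -1.41 for SOCS1, -0.72 for JAK1, -0.39 for BATF3, -1.22 for DAPP1, -0.76 for PIK3IP1, 2.13 for SLC2A1, -0.63 for DNAJC3, 1.38 for PMAIP1, -0.5 for MCL1, -1.83 for MYC and 1.66 for RGS1. It was -0.3 for FOXN3 and -0.47 for CDKN1B.

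Among genes called in KM-H2 but not in L428, the difference was 8.87 for LUM, 4.32 for MC4R, 4.22 for NTS, 3.86 for F2RL2, 3.76 for ADGRV1, 3.53 for EXOC6B, 3.34 for SH3D19, 3.34 for PLD1, -3.63 for CCL5, -3.19 for LGALS2, -1.72 for FCRLA and -0.92 for LYN. It was -0.38 for TAPBP, -1.67 for EBI3, 1.43 for CXCL8, -1.2 for CXCR5, -0.6 for ICAM1, -0.5 for NFKB2, -0.6 for JUNB, 1.36 for DUSP10, -1.25 for CD22, -0.55 for PHLPP1, -0.87 for EGLN1 and 1.19 for SC5D. It was 0.44 for CDK6, -0.61 for MCM6, -1.42 for IFIT5, -1.55 for OAS1, -1.55 for XAF1, -1.15 for CD48, -0.73 for LCP1, -0.64 for DOCK2, 2.68 for ID3, -1.25 for ID2, 1.4 for NRIP1 and -1.64 for ITGAM. It was 3.22 for DCN, -0.68 for COL1A1, -0.62 for SDHA and 0.15 for ACTB.

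Among genes called in L428 but not in KM-H2, the difference was -4.01 for ENPP2, -2.89 for PRXL2A, -2.73 for TP53INP1, -2.72 for HTR2B, -2.66 for PCYT1B, -2.59 for ZC3H12B, -1.18 for BCL6, -0.78 for FAS, -1.48 for CD38, 0.7 for FKBP11, -0.45 for ERAP1 and 1.73 for IL13. It was -2.52 for TNFSF4, -0.67 for PIM1, -1.72 for FOSL2, -0.86 for DUSP1, -0.51 for SPRED2, 0.45 for MTOR, -0.81 for PDK1, 0.43 for LDHA, 0.89 for SCD, 0.56 for CYP51A1, -1.12 for SLC38A2 and 1.24 for SLC7A11. It was 0.89 for PHGDH, -0.45 for EDEM1, -0.5 for LAMP2, -0.52 for CTSB, -0.48 for OPTN, -1.37 for BCL2L11, 0.52 for CDK4, 0.68 for CDC25A, 0.9 for MCM10, 0.82 for CDC45, 0.95 for KIF20A and 0.85 for CCNB1. It was 0.8 for PTTG1, 0.5 for POLR1B, -0.47 for NOP58, 1.39 for ITGAL, -1.89 for DOCK8, 0.66 for FOXM1, -0.42 for FOXO4, -0.75 for CD14, 0.39 for TBP and 0.28 for IRF4.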

How the results depend on the processing

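The number of arrays limits these results: with 2 per group, single arrays moved the counts of opposite changes. The class that rose in KM-H2 and fell in L428 held 105 genes without an intensity trend (102 of the 189 among them) and 124 with every probe set tested (104 of the 189). Where both responses had to reach 0.5 the classes held 12 and 32. Where the difference itself had to reach 0.5, 974 responses were higher and 1137 lower in KM-H2, against 2078 and 1666 without that threshold. Leaving out an array gave 107 to 171 and 153 to 220 opposite genes, and 1489 to 1926 higher and 1307 to 1490 lower responses. Genes of the first class called in the other lines numbered 48 to 83 in L1236, 8 to 27 in UHO-1 and 0 to 15 in SUP-HD1, and of the second class 55 to 84, 74 to 124 and 14 to 31. Correlations of same-numbered deviations lay between -0.086 and 0.044, so no shared effect of the replicate number was seen. These values cannot tell whether same-numbered arrays came from the same repeat. With the replicate number as a block, 172 and 227 genes moved in opposite directions, and with a block within each line 163 and 219. The uncalled differences of TNFRSF8 and FOXO1 changed sign, to -0.022 under cyclic loess, and to 0.062 and 0.066 without the first KM-H2 4-OHT or the first L428 vehicle array; over all single omissions FOXO1 ran between -0.14 and 0.066. Counted as pairs of a named gene and an alternative, the call was lost in 63 pairs and unchanged in 3586. The refits that each omitted an array of L1236, UHO-1 or SUP-HD1 were chosen after seeing the data. The cause was not tested.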
